A study of Rattus norvegicus with 12 samples.

Results

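The 141 ribosomal protein genes measured here, 74 of the cytosolic ribosome and 67 of the mitochondrial ribosome, were followed across 3 doses of a plasticiser in cultured rat heart muscle cells. They were taken by symbol. A probe set, the array's unit of measurement, was kept where the platform annotation gave it exactly 1 gene symbol that begins with Rpl, Rps, Mrpl or Mrps and a digit, or is Rpsa, Rplp0, Rplp1 or Rplp2, without the S6 kinases. The rule found 332 of the 15097 probe sets with 1 symbol, which stood for 141 of 14324 genes. The cytosolic set had 261 probe sets for 74 genes, 46 with a large subunit and 28 with a small subunit symbol. The mitochondrial set had 71 probe sets for 67 genes, 41 and 26 by the same reading. Of the cytosolic genes, Rps19bp1, whose product binds Rps19, and the pseudogene Rpl17-ps16 met the rule by their symbols but are not ribosomal protein genes. No measured value was used in the choice.

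The study asked how expression in heart muscle cells depends on the dose of DEHP, that is di(2-ethylhexyl) phthalate, which softens polyvinyl chloride. Sprague-Dawley pups 2 days old, all from 1 litter, gave the cells, which grew on coverslips for 3 days and were then exposed for 3 days. The 4 groups all received 0.1% dimethyl sulphoxide. It was given alone as the vehicle, or it carried DEHP to a final 1, 10 or 50 µg/ml. Each group had 3 Affymetrix arrays, 12 in all, described by the submitters as biological replicates, and p-values therefore measure the spread between cultures of 1 litter.

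Cytosolic ribosomes translate the messages of the nucleus, and each joins a small subunit, which reads the message, to a large subunit, which makes the peptide bond. Mitochondrial ribosomes are a separate kind whose proteins are also encoded in the nucleus, made in the cytosol and imported, and they translate only the few messages of the mitochondrial genome, all for membrane subunits of the respiratory chain and ATP synthase. Heart muscle is rich in mitochondria. Cytosolic ribosomal protein messages commonly start with a C followed by a run of pyrimidines (C or T), the terminal oligopyrimidine tract, through which growth signals control their translation, whereas mitochondrial ribosomal protein genes are not known as a group for such a tract.

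The reference sequence around the annotated transcription starts was searched for pyrimidine runs near the start, which need not be terminal tracts of the message. RefSeq (GRCr8) gave promoters for 115 of the 141 genes, 61 cytosolic and 54 mitochondrial. A C followed directly by at least 6 further C or T letters, on the gene's own strand and within 30 bases on either side of the start, stood in 49 of 61 cytosolic promoters (80.3%), in 14 of 54 mitochondrial ones (25.9%) and in 3044 of 11793 promoters of all measured genes (25.8%). The runs had a median length of 12 letters in the cytosolic set (range 7 to 22) and 8.5 in the mitochondrial set (range 7 to 11). Counted from the first transcribed base, runs began at -28 in Rpl7a and at 17 in Rps19. Some runs thus lay before the annotated start or well inside the message, and the shares do not count terminal tracts. Windows of 60 bases, 30 before and 30 after the start, are given for some of the genes that the results turn on, with the run in capitals. Other such genes differ from those shown for their set. Rps15a had no run, and Mrpl36, Mrpl37, Mrpl44 and Mrpl53, called at 50 µg/ml, had runs of 10, 8, 9 and 8 letters. Rps18, Rps10 and Rps28 were higher at 50 than at 1 µg/ml, and Rplp0, the stalk protein of the large subunit, is often used as a reference gene.
Rps18: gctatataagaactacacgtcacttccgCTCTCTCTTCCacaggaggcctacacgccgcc
Rps10: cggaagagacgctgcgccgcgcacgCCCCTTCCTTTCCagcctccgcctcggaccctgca
Rps28: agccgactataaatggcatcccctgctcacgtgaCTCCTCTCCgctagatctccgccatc
Rplp0: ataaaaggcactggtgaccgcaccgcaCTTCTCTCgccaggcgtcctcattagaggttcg
These lie at chr20:4933715-4933774 on the plus strand, chr20:5700715-5700774 on the minus strand, chr7:15311304-15311363 on the minus strand and chr12:46718361-46718420 on the minus strand. The 4 mitochondrial windows shown next belong to Mrps18b and Mrps7, which rose at 50 µg/ml, Mrps31, which fell there, and Mrpl46, which rose at 1 µg/ml, and none of them holds a run by this rule.
Mrps18b: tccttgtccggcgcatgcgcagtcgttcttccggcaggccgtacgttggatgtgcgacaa
Mrps7: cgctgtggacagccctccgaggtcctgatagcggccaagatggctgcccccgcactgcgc
Mrps31: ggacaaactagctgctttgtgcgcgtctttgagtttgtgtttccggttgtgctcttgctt
Mrpl46: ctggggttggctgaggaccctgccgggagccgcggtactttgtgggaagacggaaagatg
They lie at chr20:2842976-2843035 on the plus strand, chr10:101342612-101342671 on the plus strand, chr16:76324036-76324095 on the minus strand and chr1:142117001-142117060 on the minus strand. Over the whole 300 bases of each promoter (250 before and 50 after the start), both strands were searched for a few short motifs. AAGATGG, the core bound by YY1 and visible in the window of Mrps7, was in 27.8% of mitochondrial, 13.1% of cytosolic and 7.56% of all promoters. CCGGAAG, an ETS factor core, was in 33.3%, 29.5% and 13%, and the NRF1 core GCGCATG, visible in the window of Mrps18b, in 11.1%, 13.1% and 5.41%. GGGCGG, an SP1 core, was in 53.7%, 59% and 50.2%, and TATAAA in 13%, 11.5% and 11.8%. These are matches of letters and were not tested as binding sites.

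All values below are on the log2 scale. The deposited number for a probe set on an array is its ratio to the median of that probe set over the 12 arrays, so a log2 ratio of 0 is the middle of the 12, and a gene with several probe sets is given by their mean. A change is the difference of group means ± its standard error, with n = 3 arrays per group throughout. A gene was called when its adjusted p, from limma and Benjamini-Hochberg over 14324 genes, was under 0.05. The direction of the ratio (array over median) is recorded by no source used here, and if it ran the other way rises would become falls of the same size. The level of a gene is lost in such ratios, so no gene could be compared with another in abundance, and whether the markers of heart muscle cells were present could not be judged.

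Markers of several cell types differed between the groups. At 50 µg/ml, where 17.6% of all genes were called, 17 of 18 macrophage markers fell (median change -1.187), with array medians between -1.079 and -0.953 against 0.17 to 0.233 in the vehicle. In the same comparison 8 of 14 cardiomyocyte markers rose and 1 fell (median 0.182), 5 of 10 endothelial markers rose and 1 fell (median 0.251), 9 of 11 proliferation markers fell (median -0.342), and 4 of 8 epicardial, 1 of 6 erythroid, 1 of 14 fibroblast and 1 of 9 smooth muscle markers rose, with 0, 0, 3 and 4 that fell. At 10 µg/ml no marker was called, and the medians were 0.168 for cardiomyocyte, -0.151 for macrophage and -0.152 for proliferation markers. At 1 µg/ml, where 4.24% of all genes were called, 3 of 18 macrophage, 3 of 10 endothelial and 3 of 14 fibroblast markers fell. In such bulk RNA fewer cells of a type and less RNA per cell cannot be told apart, and the part of these shifts in the values of the ribosomal protein genes was not tested. The array of 10 µg/ml replicate 2 stood apart from the rest of its group: the median absolute deviation of its log2 ratios was 0.111, against 0.064 and 0.059 in replicates 1 and 3, and array weights gave it 0.271, the lowest of the 12 (50 µg/ml replicate 2 had a deviation of 0.119 and a weight of 0.483). Values without it are given beside several results at 10 µg/ml.

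At 50 µg/ml the mitochondrial set was called at a share near that of all genes, and the cytosolic set had 1 call. In the mitochondrial set 11 of 67 genes rose and 2 fell, so 19.4% were called, beside 17.6% of all genes (8.75% higher and 8.84% lower). The count of 13 ran from 5 to 19 when 1 array was left out, and the share of all genes called from 12.1% to 22%. In the cytosolic set 1 of 74 genes rose and none fell by limma, which is 1.35%. The median change was 0.076 over the mitochondrial genes, 0.041 over the cytosolic genes and 0.018 over all genes, and 55 of 67, 54 of 74 and 57% of all genes lay above 0. The cytosolic median was 0.015 without 50 µg/ml replicate 2. The 3 arrays of the 50 µg/ml group lay wholly above the 3 of the vehicle in 24 mitochondrial and 17 cytosolic genes and wholly below them in 5 and 6, beside 36% of all genes whose groups did not overlap (19.5% higher and 16.5% lower). At an unadjusted p under 0.05 there were 21 of 67 mitochondrial and 7 of 74 cytosolic genes, beside 4172 of all 14324.

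**Figure D1:**
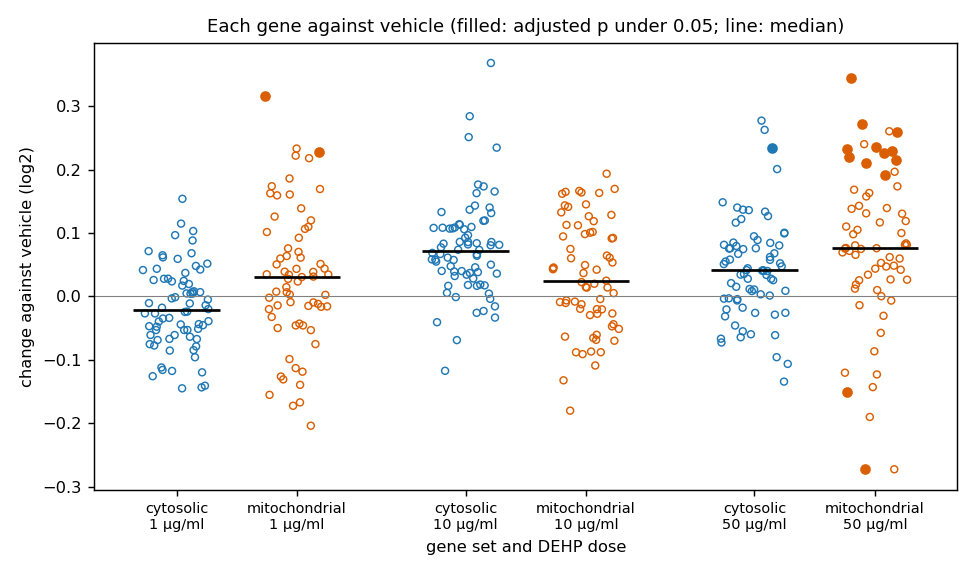
Change of each gene against vehicle (vertical axis, log2) for the cytosolic and mitochondrial sets at each DEHP dose, 1 point per gene, with called genes filled and the median of the set as a line. At 50 µg/ml 13 mitochondrial points and 1 cytosolic point are filled, at 10 µg/ml none, and at 1 µg/ml 2 mitochondrial ones.

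The changes at 50 µg/ml were small in size. The 95% interval of the change lay inside ±0.25 for 61 of 74 cytosolic genes and for 32 of 67 mitochondrial genes, and inside ±0.5 for 72 and for all 67. The cytosolic genes as a set also varied less between replicates, with a median residual SD of 0.0636 against 0.0903 in the mitochondrial set and 0.0822 over all genes. By subunit this held for the large subunit genes of the cytosol (0.0628) and not for the small subunit genes (0.0835). The test of any difference among the 4 groups called 9 cytosolic genes (12.2%) and 18 mitochondrial genes (26.9%), beside 27.2% of all genes. Of the cytosolic genes called, 2 were among 46 of the large subunit (4.35%) and 7 among 28 of the small subunit (25%).

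Among the large subunit genes of mitochondria 8 of 41 rose at 50 µg/ml and 1 fell (22%, beside 17.6% of all genes). Mrpl12 and Mrpl10 encode proteins of the stalk to which translation factors bind, and Mrpl12 is also known to bind the mitochondrial RNA polymerase. Mrpl12 read -0.095, -0.083 and -0.057 in the vehicle, -0.07, -0.18 and -0.046 at 1 µg/ml, 0.13, 0.087 and 0.046 at 10 µg/ml and 0.19, 0.17 and 0.093 at 50 µg/ml. Both higher doses thus lay above every array of the vehicle and of 1 µg/ml, and the change at 50 µg/ml was 0.23 ± 0.049 (adjusted p = 0.00564). Mrpl10 read -0.13, -0.063 and -0.01 in the vehicle and 0.051, 0.21 and 0.22 at 50 µg/ml, a change of 0.23 ± 0.066 (adjusted p = 0.0328), with replicate 1 the lowest of the treated arrays. Its arrays at 1 µg/ml (-0.003, 0.013 and -0.13) and 10 µg/ml (-0.12, 0.08 and 0.003) overlapped those of the vehicle.

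Mrpl27 and Mrpl36 have bacterial counterparts in the large subunit. Mrpl27 read -0.02, 0.059 and -0.008 in the vehicle, -0.25, -0.19 and -0.15 at 1 µg/ml, -0.02, 0.34 and 0.008 at 10 µg/ml and 0.21, 0.29 and 0.31 at 50 µg/ml. It was lowest in the 3 arrays of 1 µg/ml, and in the group of 10 µg/ml replicate 2, but not replicates 1 and 3, was as high as the arrays of 50 µg/ml. Its change at 50 µg/ml was 0.26 ± 0.081 against vehicle (adjusted p = 0.0438) and 0.46 ± 0.081 against 1 µg/ml (adjusted p = 0.00161). Mrpl36 went from -0.021, -0.19 and -0.078 in the vehicle to 0.24, 0.092 and 0.19 at 50 µg/ml, by 0.27 ± 0.078 (adjusted p = 0.0306). The arrays of Mrpl36 at 1 µg/ml spread from -0.26 to 0.021, wider than any other group of that gene.

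The other rises in the large subunit were those of Mrpl38, Mrpl37, Mrpl44 and Mrpl52, of which the first 3, like Mrpl10 above, were chosen after their values were seen. Mrpl38 had the smallest adjusted p of the mitochondrial set (0.00371), with -0.067, -0.099 and -0.056 in the vehicle, -0.039, 0.014 and -0.014 at 1 µg/ml, -0.049, 0.045 and 0.055 at 10 µg/ml and 0.22, 0.12 and 0.14 at 50 µg/ml. Every array of the 3 doses was above every vehicle array, and the change at 50 µg/ml was 0.23 ± 0.046. Mrpl37 went from -0.12, -0.11 and -0.059 to 0.08, 0.10 and 0.18 at 50 µg/ml, by 0.22 ± 0.065 (adjusted p = 0.0336). Mrpl44 went from 0.047, -0.002 and -0.076 to 0.20, 0.28 and 0.12, by 0.21 ± 0.065 (adjusted p = 0.0411), and Mrpl52 from -0.064, -0.074 and -0.052 to 0.12, 0.19 and 0.20, by 0.24 ± 0.074 (adjusted p = 0.0463). None of these groups overlapped. The fall among large subunit genes was that of Mrpl53, which read 0.053, -0.035 and 0.016 in the vehicle and -0.17, -0.15 and -0.096 at 50 µg/ml, a change of -0.15 ± 0.048 (adjusted p = 0.0477). Mrpl47 had the most negative change of the mitochondrial set, -0.27 ± 0.091, from 0.087, -0.026 and 0.026 to -0.14, -0.37 and -0.23, and was not called (adjusted p = 0.057).

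In the small subunit of mitochondria 3 of 26 genes rose and 1 fell (15.4%, beside 17.6% of all genes), and the median change was 0.102, beside 0.069 over the large subunit genes. Mrps18b had the largest rise of all 141 genes. It read 0.022, -0.096 and -0.058 in the vehicle, -0.044, -0.13 and 0.011 at 1 µg/ml, -0.011, 0.22 and -0.036 at 10 µg/ml and 0.30, 0.23 and 0.38 at 50 µg/ml. The 3 arrays of 50 µg/ml were the highest of the 12, replicate 2 of 10 µg/ml came next, and the change was 0.34 ± 0.071 (adjusted p = 0.00473). Mrps7, the counterpart of a bacterial protein of the small subunit head, read -0.011, -0.053 and -0.005 in the vehicle, 0.002, 0.013 and -0.014 at 1 µg/ml, -0.004, 0.074 and -0.002 at 10 µg/ml and 0.16, 0.17 and 0.18 at 50 µg/ml. Its arrays of the vehicle and the lower doses lay between -0.053 and 0.074, those of 50 µg/ml between 0.159 and 0.177, for a change of 0.19 ± 0.041 (adjusted p = 0.00562). Mrps35 went from -0.12, -0.044 and -0.066 to 0.13, 0.084 and 0.20, by 0.21 ± 0.061 (adjusted p = 0.0277).

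Mrps31 ran the other way. It read 0.14, 0.085 and 0.066 in the vehicle, -0.13, -0.064 and -0.023 at 1 µg/ml, 0.099, 0.023 and 0.085 at 10 µg/ml and -0.074, -0.30 and -0.15 at 50 µg/ml. Every array of 1 and of 50 µg/ml was below every array of the vehicle and of 10 µg/ml, so the order of the groups did not follow the dose. The fall at 50 µg/ml was -0.27 ± 0.058 (adjusted p = 0.00598), and the change at 1 µg/ml, -0.17 ± 0.058, did not pass (adjusted p = 0.117).

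The mitochondrial calls at 50 µg/ml depended on the arrays to an uneven degree. Mrpl12, Mrpl38, Mrps18b, Mrps31 and Mrps7 were called whichever of the 12 arrays was left out, and the other 8 of the 13 were lost in at least 1 omission. The count of 13 fell to 7 without vehicle replicate 1, 5 without vehicle replicate 2, 7 without vehicle replicate 3, 7 without 50 µg/ml replicate 2 and 6 without 50 µg/ml replicate 3. Of all genes 12.1%, 13%, 13%, 13.9% and 13.7% were called in these omissions, in that order.

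**Figure D2:**
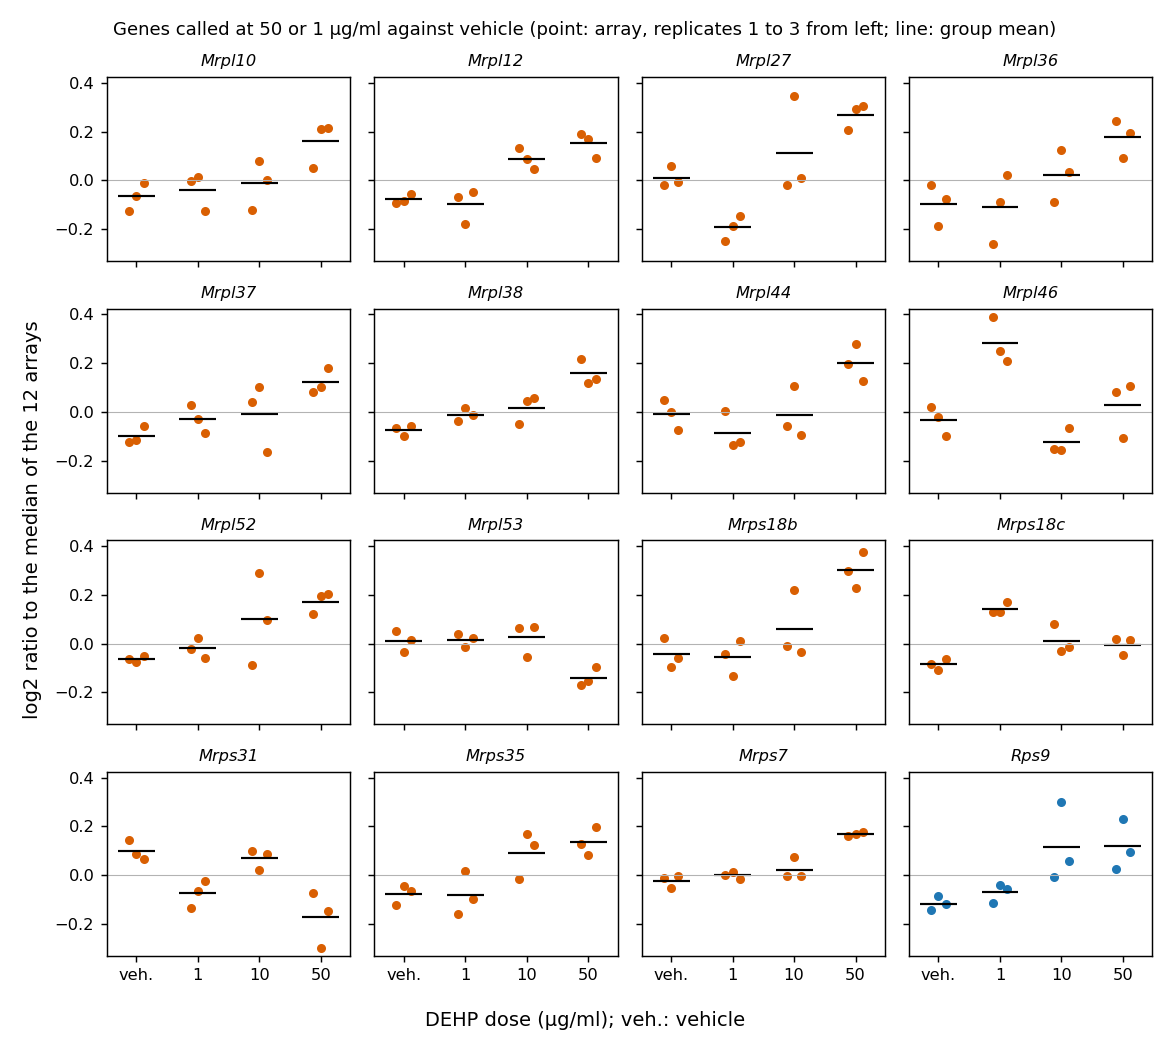
Log2 ratio to the 12-array median (vertical axis) by DEHP dose for the 16 genes called at 50 or at 1 µg/ml against vehicle, with 1 point per array (replicates 1 to 3 from left to right), the group mean as a line, mitochondrial genes in orange and Rps9 in blue. Mrps18b, Mrps7 and Mrpl38 have their 3 highest arrays at 50 µg/ml, whereas Mrpl46 and Mrps18c have theirs at 1 µg/ml.

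Mrps18a, Mrps18b and Mrps18c descend from 1 ancestral gene, and their proteins occupy different places in the ribosome. Their values were set side by side. Mrps18a, whose product sits in the large subunit despite its symbol, had changes of 0.17 ± 0.077 at 50, 0.16 ± 0.077 at 10 and -0.009 ± 0.077 at 1 µg/ml and was called at none (adjusted p = 0.153, 0.788 and 0.97). Mrps18c was called at 1 µg/ml and not at 50, the reverse of Mrps18b. No test of the differences between these genes was made.

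Cytosolic ribosomal protein genes were nearly free of calls at 50 µg/ml. Rps9, of the small subunit, read -0.14, -0.087 and -0.12 in the vehicle, -0.11, -0.039 and -0.055 at 1 µg/ml, -0.008, 0.30 and 0.058 at 10 µg/ml and 0.027, 0.23 and 0.095 at 50 µg/ml. All arrays of 10 and 50 µg/ml were above the vehicle, and replicate 2 was the highest in both of those groups. Its change at 50 µg/ml was 0.23 ± 0.075, and its adjusted p of 0.0477 sat at the threshold. Rps9 was no longer called in 8 of the 12 omissions of 1 array, namely each vehicle array, each array of 1 µg/ml and replicates 2 and 3 of 50 µg/ml. Without 10 µg/ml replicate 2 there were 5 cytosolic calls, 4 higher and 1 lower, in place of 1, and 22% of all genes were called.

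Larger changes than that of Rps9 were measured for Rps28 and Rps15a of the small subunit, but their standard errors were also larger. A standard error here pools the spread within all groups, those not compared included. In the vehicle and at 50 µg/ml the arrays of Rps28 were no further apart than those of Rps9, whereas those of Rps15a were. Rps28 read -0.008, -0.001 and 0.001 in the vehicle and 0.17, 0.35 and 0.31 at 50 µg/ml (0.28 ± 0.11, adjusted p = 0.0947). Rps15a read -0.038, -0.22 and -0.033 in the vehicle and 0.026, 0.29 and 0.18 at 50 µg/ml (0.26 ± 0.13, adjusted p = 0.197). Neither gene's groups overlapped, and neither was called. At the other end Rpl4, which lines the exit tunnel of the large subunit, had a change of -0.13 ± 0.046 with 0.065, 0.012 and 0.04 in the vehicle and -0.098, -0.13 and -0.057 at 50 µg/ml (adjusted p = 0.0653). These genes were chosen for this comparison after their values were seen.

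Several cytosolic genes with known roles beyond the ribosome or at its active sites were looked at whether or not they moved. Of a panel of 28 such genes in both sets 22 were measured. Of these 22, Mrpl12 and Mrps7 were the ones called at 50 µg/ml, beside 17.6% of all genes. Rplp0, Rplp1 and Rplp2, the acidic stalk proteins of the large subunit, had changes of 0.021, 0.028 and 0.041. Rplp0 read -0.032, 0.004 and 0.035 in the vehicle, -0.056, -0.054 and -0.035 at 1 µg/ml, -0.005, 0.057 and 0.067 at 10 µg/ml and 0.01, 0.046 and 0.015 at 50 µg/ml, so that its 12 arrays lay within -0.056 and 0.067. Rps6, the target of the S6 kinases, had a change of -0.02 ± 0.048, and Rpsa, also known as the laminin receptor, one of 0.011 ± 0.079. Rpl5 and Rpl11, which with 5S RNA bind Mdm2, had changes of 0.001 ± 0.05 and 0.076 ± 0.064. Rpl3, at the peptidyl transferase centre, had a change of -0.11 ± 0.061. The change was -0.004 ± 0.08 for Rps14, 0.12 ± 0.10 for Rps19, -0.029 ± 0.04 for Rps4x, -0.006 ± 0.10 for Rps27, -0.06 ± 0.053 for Rpl7 and 0.051 ± 0.089 for Rpl39. Rpl22 and its paralogue Rpl22l1 had changes of 0.08 ± 0.065 and 0.095 ± 0.14, and the arrays of Rpl22l1 spread from -0.18 to 0.342. Among the mitochondrial panel genes, the change was 0.075 ± 0.11 for Mrps12, 0.16 ± 0.11 for Mrps16, 0.098 ± 0.067 for Mrpl3 and -0.12 ± 0.056 for Mrpl41, and none of the 4 was called.

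At 10 µg/ml no gene was called in either set, and none of the 14324 genes was (0%) by limma. Repeated quantile normalization called 15 genes in all with none in either set, and array weights called 90, among them Mrpl12 of the mitochondrial set and no cytosolic gene. At an unadjusted p under 0.05 there were 7 cytosolic genes, 8 mitochondrial genes and 899 in all. The median change was 0.071 over the cytosolic set, with 65 of 74 genes above 0, beside 0.025 over the mitochondrial set and -0.006 over all genes. The arrays of 10 µg/ml lay wholly above those of the vehicle in 22 cytosolic genes and below them in none, beside 11.2% of all genes in either direction (5.01% higher and 6.22% lower). In the mitochondrial set 8 genes lay wholly above and 1 below. Without replicate 2 of 10 µg/ml, which leaves 2 arrays against 3, 27 cytosolic genes lay wholly above and 1 below, 13 and 3 mitochondrial genes did, and of all genes 8.58% and 14.3% did.

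The cytosolic medians of single arrays showed which arrays carried this. They were -0.004, -0.024 and -0.006 in the vehicle, -0.074, -0.001 and -0.042 at 1 µg/ml, 0.022, 0.087 and 0.031 at 10 µg/ml and -0.010, 0.064 and 0.016 at 50 µg/ml. The 3 arrays of 10 µg/ml were all above the 3 of the vehicle, with replicate 2 the highest of the 12. Without that array the cytosolic median change at 10 µg/ml was 0.037 in place of 0.071, with 60 of 74 genes above 0, and the mitochondrial one was 0.016 in place of 0.025. The mitochondrial median was 0.042 without vehicle replicate 1 and 0.052 without 10 µg/ml replicate 1. The mitochondrial medians were -0.001, -0.024 and -0.052 in the vehicle, -0.010, -0.008 and -0.001 at 1 µg/ml, -0.015, 0.046 and 0.003 at 10 µg/ml and 0.041, 0.032 and 0.066 at 50 µg/ml. In that set all 3 arrays of 50 µg/ml were above the vehicle, and replicates 1 and 2 were below replicate 2 of 10 µg/ml. The cytosolic less the mitochondrial median was -0.051, 0.032 and -0.050 in the 3 arrays of 50 µg/ml and -0.003, 0 and 0.047 in the vehicle, so the order of the sets was not the same in every array of a group.

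**Figure D3:**
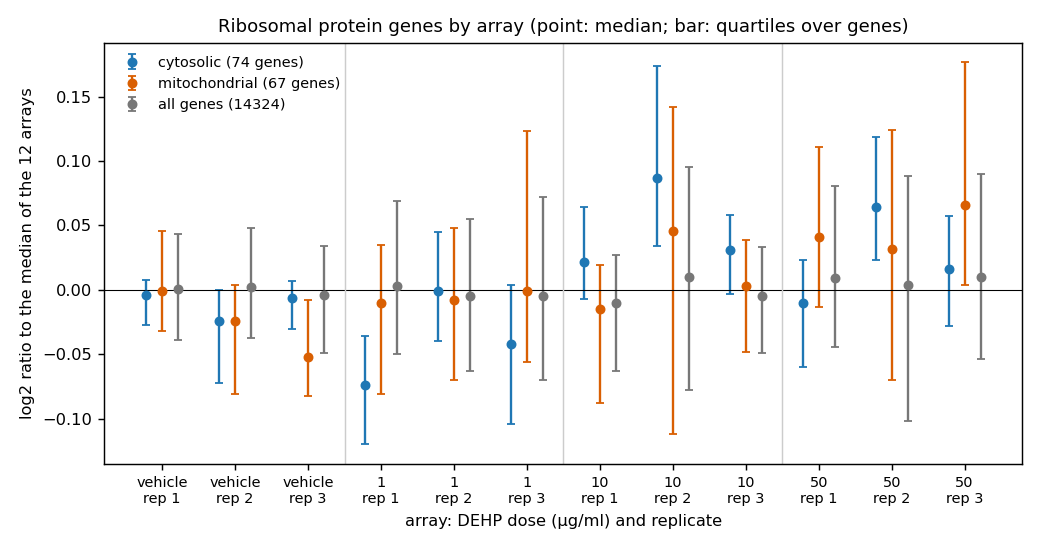
Median (point) and quartiles (bar) over genes of the log2 ratio in each of the 12 arrays, for the 74 cytosolic genes, the 67 mitochondrial genes and all 14324 genes. The cytosolic median is highest in 10 µg/ml replicate 2 (0.087) and lowest in 1 µg/ml replicate 1 (-0.074), and the mitochondrial medians of 50 µg/ml lie between 0.032 and 0.066.

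The high values of 10 µg/ml replicate 2 were uneven over the subunits. In 35 of 74 cytosolic genes (47.3%) that array was the highest of the 12, beside 17% of all genes and 13 of 67 mitochondrial genes (19.4%). Of the small subunit genes of the cytosol it was the highest in 19 of 28 (67.9%), and of the large subunit genes in 16 of 46 (34.8%). The difference between the medians of small and large cytosolic genes in single arrays was 0.088 there, against 0.017 and -0.018 in replicates 1 and 3 of its group and 0.019, 0.034 and 0.030 at 50 µg/ml. At the low end, 1 µg/ml replicate 1 held the lowest value of 22 cytosolic genes (29.7%), beside 7.92% of all genes. For 1 µg/ml replicate 3 this was 18 cytosolic genes (24.3%), beside 11.9% of all genes.

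**Figure D4:**
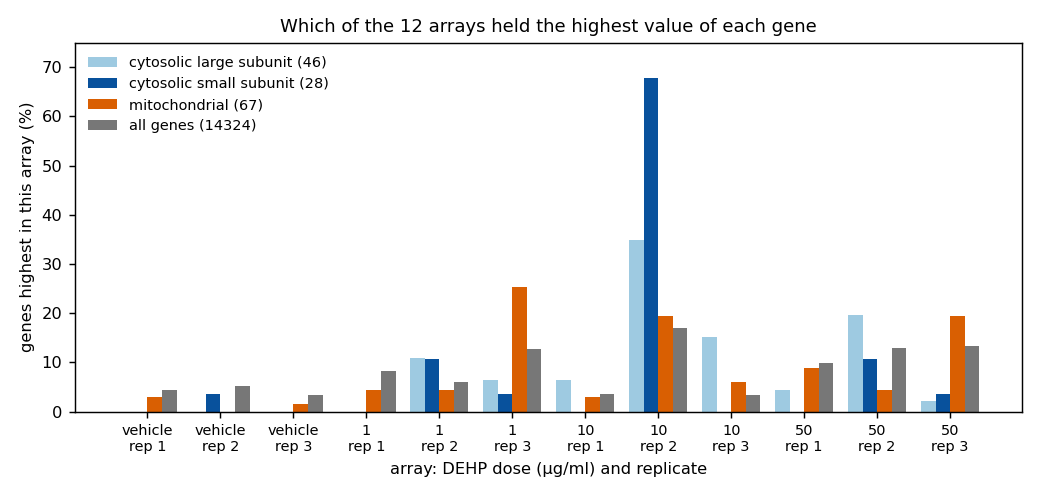
Share of genes (vertical axis, percent) whose highest value of the 12 arrays fell in each array (horizontal axis), for large and small subunit cytosolic genes, mitochondrial genes and all genes. The bar of small subunit genes reaches 67.9% in 10 µg/ml replicate 2, where that of all genes is 17%.

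The cytosolic genes with the smallest p at 10 µg/ml were Rps9, Rps18 and Rps15a, all of the small subunit. Rps15a read 0.096, 0.64 and 0.078 in replicates 1 to 3 of 10 µg/ml, against -0.038, -0.22 and -0.033 in the vehicle and -0.25, -0.11 and -0.30 at 1 µg/ml. Its change of 0.37 ± 0.13 at 10 µg/ml was the largest of the cytosolic set with all arrays and was not called (adjusted p = 0.732). Without replicate 2 the change of Rps15a was 0.18 ± 0.083, that of Rps18 was 0.19 ± 0.088 and that of Rps9 was 0.14 ± 0.061, with an adjusted p of 1 for each. Rps18, of the small subunit head, read 0.18, 0.33 and 0.11 at 10 µg/ml against -0.10, -0.079 and 0.049 in the vehicle (0.25 ± 0.085, adjusted p = 0.732), and Rps9 had a change of 0.23 ± 0.075 (adjusted p = 0.703). In all 3 genes the arrays of 10 µg/ml lay above those of the vehicle. In the mitochondrial set the 3 genes with the smallest unadjusted p at this dose were Mrpl12 (0.17 ± 0.049, adjusted p = 0.603), Mrps35 (0.17 ± 0.061, adjusted p = 0.732) and Mrps17 (-0.18 ± 0.078, adjusted p = 0.785).

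At 1 µg/ml 2 of 67 mitochondrial genes rose and none fell (2.99%), and none of 74 cytosolic genes was called by limma, beside 4.24% of all genes (2.51% higher and 1.74% lower). The cytosolic set had 1 gene at an unadjusted p under 0.05, beside 2889 of all 14324, and 0 calls in the other settings tried. Mrpl46, of the large subunit, read 0.39, 0.25 and 0.21 at 1 µg/ml, against 0.019, -0.019 and -0.099 in the vehicle, -0.15, -0.15 and -0.065 at 10 µg/ml and 0.082, -0.11 and 0.11 at 50 µg/ml. The 3 arrays of 1 µg/ml were the highest of the 12. The rise was 0.32 ± 0.067 against vehicle (adjusted p = 0.0221), and the change from 1 to 10 µg/ml was -0.41 ± 0.067 (adjusted p = 0.00364). Mrps18c read 0.13, 0.13 and 0.17 at 1 µg/ml, against -0.086, -0.11 and -0.062 in the vehicle, 0.082, -0.032 and -0.013 at 10 µg/ml and 0.019, -0.047 and 0.013 at 50 µg/ml. All 9 treated arrays were above the vehicle, those of 1 µg/ml the most, and the rise there was 0.23 ± 0.045 (adjusted p = 0.0167). Array weights gave 9 mitochondrial calls at this dose, the compared groups alone 6 and repeated quantile normalization 4. These settings called 12.4%, 11.6% and 7.95% of all genes. Neither call was kept in all omissions: none of the 2 remained without vehicle replicate 1, 2 or 3 or without 1 µg/ml replicate 1, Mrpl46 remained without 1 µg/ml replicate 3, and 5 genes were called without 10 µg/ml replicate 2. Of all genes 1.23%, 1.4% and 1.35% were called without vehicle replicates 1, 2 and 3. In the other omissions named, in that order, 1.35%, 1.44% and 8.95% of all genes were called.

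The cytosolic set leaned slightly the other way at 1 µg/ml. The median change was -0.022, with 29 of 74 genes above 0, beside 0.031 over the mitochondrial genes and -0.003 over all genes. The cytosolic median was -0.013 without vehicle replicate 1, -0.008 without 1 µg/ml replicate 1, -0.039 without 1 µg/ml replicate 2 and -0.011 without 1 µg/ml replicate 3, and the mitochondrial one was 0.005 without vehicle replicate 3. Repeated quantile normalization gave a cytosolic median of -0.007. No cytosolic gene had its 1 µg/ml arrays wholly above the vehicle and 13 had them wholly below, beside 30.8% of all genes apart in either direction (16.7% higher and 14.1% lower), and in the mitochondrial set there were 9 and 7. Small subunit genes had a median of -0.053 and large subunit genes one of 0.001. Rpl13, of the large subunit, had the smallest unadjusted p of the set and read -0.18, -0.095 and -0.19 at 1 µg/ml against -0.024, -0.007 and 0 in the vehicle (-0.14 ± 0.061, adjusted p = 0.209). Rps19bp1 (-0.11 ± 0.052, adjusted p = 0.255) and Rpl14 (-0.12 ± 0.056, adjusted p = 0.267) came next.

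Between the doses some cytosolic genes passed the test. These comparisons share arrays with those above and with each other. At 10 against 1 µg/ml 7 of 74 cytosolic genes rose (9.46%) and none fell, and 6 of 67 mitochondrial genes rose and 4 fell (14.9%), beside 14% of all genes (4.77% higher and 9.2% lower). Of the 7 cytosolic genes 6 had small subunit symbols, out of 28 such genes, and 1 was among the 46 large subunit genes. They were Rps15a (0.49 ± 0.13), Rps19 (0.43 ± 0.10), Rps18 (0.37 ± 0.085), Rpl13 (0.31 ± 0.061), Rps10 (0.23 ± 0.066), Rps26 (0.18 ± 0.052) and Rps19bp1 (0.20 ± 0.052), with adjusted p-values from 0.00859 for Rpl13 to 0.0387 for Rps10 and Rps26. Rps19, which is mutated in Diamond-Blackfan anaemia, read -0.19, -0.069 and -0.28 at 1 µg/ml and 0.10, 0.52 and 0.11 at 10 µg/ml. Every array of 10 µg/ml was above every array of 1 µg/ml for it, and replicate 2 was far above the other arrays of its group. Without that array the change was 0.29 ± 0.076 for Rps19 (adjusted p = 0.0433), 0.31 ± 0.083 for Rps15a (adjusted p = 0.0484) and 0.24 ± 0.053 for Rpl13 (adjusted p = 0.0223), and the other 4 genes were not called. The counts were then 3 cytosolic and 2 mitochondrial genes in place of 7 and 10, and without 1 µg/ml replicate 1 they were 1 and 2, without 1 µg/ml replicate 3 they were 1 and 5. Without 10 µg/ml replicate 3 there were 11 cytosolic calls. In these omissions, in that order, 6.14%, 6.59%, 5.72% and 18.8% of all genes were called. The compared groups alone gave 1 call in each set, and array weights gave 16 mitochondrial calls. These settings called 4.87% and 22% of all genes. Rpl13 was the 1 cytosolic gene and Mrpl46 the 1 mitochondrial gene called in every omission.

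At 50 against 1 µg/ml 9 of 74 cytosolic genes rose and 1 fell (13.5%), and 11 of 67 mitochondrial genes rose and 5 fell (23.9%), beside 24.9% of all genes (11.5% higher and 13.4% lower). Rps28 (0.42 ± 0.11, adjusted p = 0.0125), which read -0.074, -0.18 and -0.17 at 1 µg/ml and 0.17, 0.35 and 0.31 at 50 µg/ml, and Rps10 (0.27 ± 0.066, adjusted p = 0.0112), which read -0.18, -0.097 and -0.17 and 0.035, 0.20 and 0.12, were called in every omission of an array. In both genes the 2 groups were far apart, and replicate 2 was the highest array of 50 µg/ml. The other rises were those of Rps15a (0.39), Rps18 (0.26), Rpl13 (0.21), Rpl14 (0.19), Rps19bp1 (0.18), Rps26 (0.16) and Rpl35 (0.14), and Rpl4 fell by 0.17. In the mitochondrial set Mrpl12, Mrpl23, Mrpl27, Mrpl44, Mrps18b and Mrps7 were called in every omission, all of them higher at 50 µg/ml. The largest falls there were those of Mrpl47 (-0.36 ± 0.091, adjusted p = 0.0116) and Mrpl1 (-0.29 ± 0.079, adjusted p = 0.0186). The cytosolic count of 10 fell to 6 without vehicle replicate 1 or 2, 4 without 1 µg/ml replicate 1, 3 without 1 µg/ml replicate 3, 2 without 50 µg/ml replicate 2 and 5 without 50 µg/ml replicate 3. Of all genes 22.7%, 22.5%, 18.1%, 18.4%, 17% and 19.3% were called in these omissions, in that order. The mitochondrial count of 16 was 8 without 1 µg/ml replicate 1 and 9 without 50 µg/ml replicate 2. Repeated quantile normalization gave 4 cytosolic and 7 mitochondrial calls, beside 16.2% of all genes.

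At 50 against 10 µg/ml no cytosolic gene was called by limma, with 0 to 6 calls in the other settings. At an unadjusted p under 0.05 there were 6 cytosolic genes, beside 3812 of all 14324. In the mitochondrial set 3 of 67 genes rose and 3 fell (8.96%), beside 14.6% of all genes (7.75% higher and 6.85% lower). The rises were those of Mrps18b (0.24 ± 0.071), Mrpl44 (0.21 ± 0.065) and Mrps7 (0.15 ± 0.041), and the falls those of Mrps31 (-0.24 ± 0.058), Mrpl17 (-0.19 ± 0.048) and Mrpl53 (-0.17 ± 0.048). The 6 genes became 3 without vehicle replicate 3, 1 without 10 µg/ml replicate 1, 2 without 50 µg/ml replicate 1 and 10 without 10 µg/ml replicate 2. Of all genes 13.4%, 10.7%, 11.6% and 17.7% were called in these omissions, in that order. The compared groups alone gave 0 mitochondrial calls, repeated quantile normalization 2 and array weights 16. These settings called 9.16%, 9.78% and 24.1% of all genes. None of the 6 was called in every omission. Genes named in the comparisons between doses, apart from those named against vehicle, were chosen after their values were seen.

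Many cytosolic ribosomal protein genes have near-identical processed copies in the genome, and the array holds several probe sets under 1 symbol for 55 of the 74, against 4 of the 67 mitochondrial genes. Probe sets of 1 gene may read the same RNA and are not replicates, and no reading was taken of which copy each one sees. Of the 35 genes with 3 or more probe sets, the SD of the change at 50 µg/ml among the probe sets of a gene had a median of 0.02, beside an SD of 0.079 among the cytosolic genes and 0.125 among the mitochondrial ones. The median correlation of pairs of probe sets over the 12 arrays was 0.939 in the middle gene, from 0.144 in Rpl5 to 0.993 in Rps19, given as a description of arrays shared by all of them. Rpl21 had 21 probe sets, with changes that all lay between -0.069 and -0.023. In 8 genes the probe sets lay on both sides of 0. Rpl31 was the extreme case: 1 of its 7 probe sets changed by 0.303 (adjusted p = 0.0224 over all 27342 probe sets), and the other 6 lay between -0.016 and 0.011. The 2 probe sets of Rps9 had changes of 0.185 (adjusted p = 0.182) and 0.284 (adjusted p = 0.0477). Tested one by one at 50 µg/ml, 2 of 261 cytosolic probe sets rose, and 8 of 71 mitochondrial ones rose and 1 fell, beside 12.2% of all probe sets called. Genes with 1 probe set gave 0 of 19 cytosolic and 13 of 63 mitochondrial calls (20.6%), beside 17.8% of all genes with 1 probe set, and genes with several gave 1 of 55 cytosolic calls (1.82%), beside 12.8% of all such genes.

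**Figure D5:**
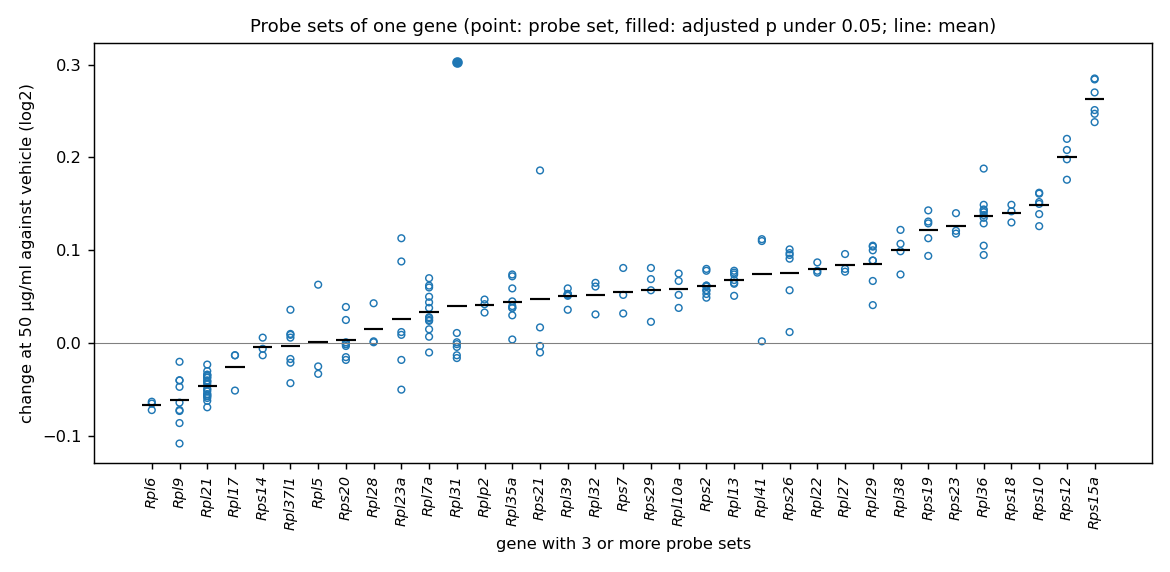
Change at 50 µg/ml against vehicle (vertical axis, log2) of each probe set (point) for the 35 cytosolic genes with 3 or more probe sets (horizontal axis, ordered by their mean, drawn as a line), with called probe sets filled. The points of most genes lie close together, and 1 of the 7 probe sets of Rpl31 stands at 0.303 above the other 6.

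Changes of the cytosolic genes were also set out by the presence of a pyrimidine run. At 50 µg/ml the median change was 0.041 over the 49 genes with a run and 0.071 over the 12 without, at 10 µg/ml 0.073 and 0.075, and at 1 µg/ml -0.014 and -0.037. No cytosolic gene in either group was called at 50 µg/ml, and 1 of the 13 without a promoter entry was. For the mitochondrial genes the medians at 50 µg/ml were 0.064 over 14 with a run, of which 4 were called, and 0.081 over 40 without, of which 7 were. Of the 13 mitochondrial genes without a promoter entry 2 were called. These counts stand beside 17.6% of all genes called. These groups of genes were set side by side without a test.

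Genes that build, feed or regulate the ribosome were counted in lists drawn up for this purpose, and their counts at 50 µg/ml stand beside 17.6% of all genes called (8.75% higher and 8.84% lower). Of 8 measured ribosomal proteins whose symbols do not follow the naming rule 1 was called at 50 µg/ml: Ptcd3, of the mitochondrial small subunit, changed by -0.40 ± 0.11 (adjusted p = 0.0296), with 0.10, -0.08 and -0.042 in the vehicle and -0.17, -0.47 and -0.57 at 50 µg/ml. Among 55 ribosome assembly factors 3 rose and 1 fell (7.27%, median 0.042). Wdr75, of the complex that starts processing of the small subunit RNA, changed by -0.35 ± 0.068 (adjusted p = 0.00312), and Nip7, needed for ribosomal RNA processing, by 0.24 ± 0.067 (adjusted p = 0.0255). At 1 µg/ml 4 assembly factors rose and none fell (7.27%, beside 4.24% of all genes), with a median of 0.11, where the cytosolic ribosomal protein genes had a median of -0.022. At 10 against 1 µg/ml none of the assembly factors rose and 15 of 55 fell (27.3%, median -0.133), beside 14% of all genes (4.77% higher and 9.2% lower). In the cytosolic set 7 of 74 genes rose there, Rps19bp1 among them, and none fell. Of the lists below, RNA polymerases had 7 of 23 falls in that comparison, cytosolic translation factors 11 of 42 and 1 rise, and mitochondrial assembly genes 6 of 18 and 1 rise. The other mitochondrial lists had fewer: translation factors 1 of 13 falls, synthetases 2 of 13 and 1 rise, and genes of transcription and replication 1 of 14 and 1 rise. Of 17 growth regulators 4 rose and 0 fell. The lowest value of 18 of the 55 assembly factors (32.7%, beside 14.6% of all genes) was in 10 µg/ml replicate 2. Aurkaip1, also of the mitochondrial small subunit, had a change of -0.046 ± 0.049 at 50 µg/ml and was not called.

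Of 23 genes of RNA polymerases I and III, which make ribosomal and transfer RNA, 1 fell at 50 µg/ml (4.35%, beside 17.6% of all genes), Polr3k (-0.18 ± 0.049, adjusted p = 0.0213). Of 42 cytosolic translation factors 4.76% were called: 1 rose, Eef1a2, the elongation factor form of muscle and neurons (0.24 ± 0.06, adjusted p = 0.0149), and 1 fell, the helicase Eif4a2 (-0.27 ± 0.082, adjusted p = 0.0409). In the list of 17 growth regulators of translation 3 rose and 1 fell (23.5%). Ddit4, an inhibitor of mTORC1, read 0.87, 0.50 and 0.44 in the vehicle, -0.49, -0.64 and -0.58 at 1 µg/ml, 0.50, 0.83 and 0.58 at 10 µg/ml and -0.44, -0.58 and -0.51 at 50 µg/ml. Its arrays at 1 and 50 µg/ml were all far below those of the other 2 groups, and its change at 50 µg/ml was -1.12 ± 0.11 (adjusted p = 1.58e-05). Myc, a transcription factor that promotes ribosome production, read -0.11, -0.13 and -0.017 in the vehicle and 0.43, 0.32 and 0.41 at 50 µg/ml, a rise of 0.47 ± 0.052 (adjusted p = 4.62e-05) with no overlap.

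On the mitochondrial side the shares called at 50 µg/ml were 15.4% of translation factors, 7.69% of synthetases, 5.56% of assembly genes and 14.3% of genes of transcription and replication, beside 17.6% of all genes. Of 13 translation factors 2 fell, Mtif2, the initiation factor that brings in the first transfer RNA (-0.32 ± 0.093, adjusted p = 0.0314), and Mtfmt, which formylates that transfer RNA (-0.24 ± 0.064, adjusted p = 0.0182). Of 13 aminoacyl-transfer RNA synthetases of mitochondria 1 rose, Fars2, for phenylalanine (0.31 ± 0.088, adjusted p = 0.028). Of 18 mitochondrial ribosome assembly genes 1 rose, Nsun4, which methylates the small ribosomal RNA (0.32 ± 0.084, adjusted p = 0.0202). Of 14 genes of mitochondrial transcription and replication 1 rose, the coactivator Ppargc1b (0.39 ± 0.073, adjusted p = 0.00236), and 1 fell, the elongation factor Tefm (-0.28 ± 0.054, adjusted p = 0.00304). The medians of these 4 lists at 50 µg/ml were 0.017, -0.025, -0.008 and 0.014, beside 0.076 over the mitochondrial ribosomal protein genes and 0.018 over all genes. The next genes by p in 3 of these partner lists were not called: Polr1f of RNA polymerase I (0.20 ± 0.077), the tyrosine synthetase Yars2 (-0.27 ± 0.096) and the assembly factor Rbfa (0.17 ± 0.056).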

How the data were processed

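RNA was extracted with TRIzol and RNeasy columns and labelled cRNA was made from 5 µg of total RNA, per the labels' protocols. The submitters' processing notes name RMA as the summary method, with no version. The values deposited by the authors are linear ratios, each probe set's value divided by its median over the 12 arrays: the log midpoint of its 6th and 7th values was 0 to within 5e-07, and ratios ran from 0.165 to 12.2. Array medians of these ratios lay between 0.994 and 1.01. All 12 columns belong to a sample (0 without one). Depth is not defined for arrays, and their number limits the precision.

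Ratios were converted to log2. Of 27342 probe sets 15097 had 1 symbol, 323 several and 11922 none, and a probe set with several was not used, so that 1 listing Mrpl20 with another gene was left out. RefSeq's GRCr8 annotation held 140 of the 141 members by Entrez number, and 0 symbols changed. Promoters are RefSeq's, with the first entry taken for the 2 members that had several. The 4 groups were modelled together (8 residual degrees of freedom) using limma 3.58.1 under R 4.3.3, with empirical Bayes moderation, two-sided tests and Benjamini-Hochberg adjustment at 0.05. The code was tested on simulated data. For single values the smallest exact permutation p in this design is 0.1.

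The genes and lists were chosen with earlier results of these data known. Genes named against vehicle are, for each set and dose, the 4 largest rises and 4 largest falls among those called, or the 3 with the smallest p where none was, plus the panel and the 2 genes with the smallest p at 50 µg/ml of each partner list. Other names were added after the values were seen. Subunits follow the symbols. The alternatives are those of the closing section.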

Additional observations from a re-analysis of the deposited data

How the results depend on the processing

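No named gene that was called and no median against vehicle changed sign under the alternatives run for it, and no member called in any comparison did when 1 array was left out (0 sign changes). Of the uncalled genes named, Mrps12, Rpl39, Rpl5, Rps14, Rps27, Rps6 and Rpsa took values on both sides of 0 at 50 µg/ml. Leaving out each array in turn gave 0 to 5 cytosolic and 5 to 19 mitochondrial calls at 50 µg/ml, 0 and 0 at 10 µg/ml, 0 and 0 to 5 at 1 µg/ml, 0 to 1 and 1 to 10 at 50 against 10 µg/ml, 2 to 15 and 8 to 20 at 50 against 1 µg/ml, and 1 to 11 and 2 to 13 at 10 against 1 µg/ml. The share of all genes called ran, in the same order, from 12.1% to 22%, 0% to 0.00698% and 1.23% to 8.95% against vehicle. Between doses it ran from 10.7% to 17.7%, 17% to 30.5% and 5.72% to 18.8%. Median changes ranged from 0.071 to 0.102 (mitochondrial, 50 µg/ml), 0.016 to 0.052 (mitochondrial, 10 µg/ml), 0.005 to 0.036 (mitochondrial, 1 µg/ml), 0.015 to 0.059 (cytosolic, 50 µg/ml), 0.037 to 0.081 (cytosolic, 10 µg/ml) and -0.039 to -0.008 (cytosolic, 1 µg/ml). Repeated quantile normalization moved the mitochondrial counts to 4 at 1 µg/ml, 2 at 50 against 10 µg/ml and 7 at 50 against 1 µg/ml, and the cytosolic count at 50 against 1 µg/ml to 4. With a robust prior the cytosolic count at 50 µg/ml was 0, beside 17.3% of all genes. Array weights gave cytosolic counts of 3 at 50 µg/ml and 6 at 50 against 10 µg/ml, and mitochondrial counts of 1 at 10 µg/ml, 9 at 1 µg/ml, 16 at 50 against 10 µg/ml and 16 at 10 against 1 µg/ml. The compared groups alone gave 4 cytosolic calls at 50 µg/ml and 1 at 10 against 1 µg/ml, and 6, 0 and 1 mitochondrial calls at 1 µg/ml, 50 against 10 µg/ml and 10 against 1 µg/ml. At 50 µg/ml array weights called 22.2% of all genes and the compared groups alone 20%. Probe sets tested one by one gave 2 cytosolic calls at 50 µg/ml and 1 at 50 against 10 µg/ml. Replicate numbers were shared by the groups, and the arrays were treated as unpaired. Of 18 correlations of same-numbered arrays 6 were over 0.1 (range -0.233 to 0.431), the highest between replicates 2 of 10 and 50 µg/ml. Differently numbered arrays were not set beside them, so these values cannot decide whether the numbers pair the arrays. A replicate block gave 1 cytosolic and 14 mitochondrial calls at 50 µg/ml, beside 17.7% of all genes, and moved no other count by over 1.5 times. Centring, a prior variance following the mean, and the alternatives added after seeing the data (the median of a gene's probe sets, and the cytosolic set without Rps19bp1 and Rpl17-ps16) moved none. Of the values of named genes 1048 kept their side of the threshold, 100 lost the call and 12 gained it. A filter on dim probe sets could not be run, since ratios keep no level. Where a count moved, the cause was not tested.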
